A study of Mus musculus with 12 samples.

Results

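The RNA of the polysome pool of Lsm14b-KO oocytes was compared with that of their RNP pool, through the 6 KO libraries of a series of 12: 3 of the polysome pool and 3 of the RNP pool. Germinal vesicle (GV) oocytes were collected from 3-week-old mice 46 h after 5 IU of PMSG, about 1500 oocytes were lysed in the presence of cycloheximide, and the lysate was separated on a sucrose gradient. Fractions 1 to 10 were combined as the RNP pool and fractions 11 to 28 as the polysome pool, and the RNA of each was amplified by Smart-seq2, a method for very small amounts of RNA. The KO mice were homozygous for a knockout-first, reporter-tagged insertion allele of Lsm14b (tm1a(KOMP)Mbp) on C57BL/6J, which is carried by every cell of the animal, and the other 6 libraries came from WT oocytes treated the same way. The sources do not say whether the replicates came from separate animals or gradients, so p-values measure the spread between these libraries. The genes described are those at 1 FPKM or more in at least 3 of the 6 KO libraries, 9851 of the 24259 gene symbols of the table.

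A fully grown GV oocyte no longer transcribes its genes and draws on mRNAs made during growth. Some of these mRNAs are translated at once, and others are packed with RNA-binding proteins into messenger ribonucleoprotein (RNP) particles and are translated only when meiosis resumes. LSM14B belongs to the LSM14 family, RNA-binding proteins of such particles that associate with the helicase DDX6 and the eIF4E-binding protein 4E-T. An mRNA loaded with several ribosomes sediments deep in a sucrose gradient, whereas free RNP particles stay near the top.

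FPKM is the number of sequenced fragments of a gene scaled by the length of its transcript and by the size of the library. Each library is scaled to its own total, so a pool difference says where a transcript stood relative to the average transcript, not which share of its molecules lay on polysomes, and less RNA per oocyte cannot be told apart from fewer oocytes. Depth, estimated from the steps of the lowest values, was 6.56 to 7.63 M fragments in the KO RNP libraries and 4.81 to 6.54 M in the KO polysome libraries (M, mega). Replicates correlated at Pearson r of 0.960 to 0.962 in the RNP pool and 0.928 to 0.931 in the polysome pool. KO polysome replicate 2 stood apart in 1 entry, Mir300, listed at 170809 FPKM there and at 0 in the other 11 libraries. Without that library 2571 genes were called in place of the 2881 below. All 18 oocyte markers were at 1 FPKM or more in each KO library. Of 35 markers of follicle and blood cells, 17 to 22 were at 0 in each KO library, the LH receptor Lhcgr, the blood marker Ptprc and both globin genes among them. The 35 summed to 256 to 296 FPKM in the RNP pool and to 265 to 353 FPKM in the polysome pool. Serpine2 was the highest of them in each KO library. Cyp19a1 reached 37.6, Pecam1 26.6 and Fshr 13.6 FPKM in the KO RNP pool, and Inha 51.4 FPKM in the KO polysome pool. At 1 FPKM or more were 8 to 10 of the 35 in KO RNP libraries and 11 to 13 in KO polysome libraries. In WT these numbers were 5 to 8 and 6 to 7, and 22 to 28 were at 0.

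Lsm14b itself was close to absent in the KO libraries. It stood at 0.893, 0.0627 and 0 FPKM in the RNP pool and at 0.26, 0 and 0.0876 FPKM in the polysome pool, against 34.6, 29.3 and 27.4 and 11.3, 15.3 and 13.2 FPKM in the WT pools. It therefore did not pass the filter in KO. Its paralog Lsm14a was at 103, 103 and 118 FPKM in the KO RNP libraries and at 32.5, 38.4 and 70.9 in the KO polysome libraries. The RNP libraries were the higher ones without overlap, by a log2 difference of -1.25 (polysome minus RNP, here and below on log2(FPKM + 1), SE 0.25, limma adjusted p = 0.00556).

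The pools of KO oocytes differed at 2881 of the 9851 genes, 29.2% of those tested, at an adjusted p under 0.05 in limma. In the polysome pool 1523 genes were higher (15.5%), and in the RNP pool 1358 (13.8%). The median difference over all genes was -0.04. The filter kept 66 genes that reached 1 FPKM in every polysome library and in no RNP library, of which 25 were called, and 99 in the reverse position, of which 67 were called. Those genes could enter only through the pool in which they were high.

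The largest differences in favour of polysomes included metabolic enzymes and proteins of the egg. 2300002M23Rik was first, at 2.68, 2.01 and 8.5 FPKM in the RNP libraries against 79, 90.5 and 90.6 in the polysome libraries. Atp6ap2, an accessory subunit of the V-ATPase proton pump and prorenin receptor, followed at 6.5, 9.4 and 10.1 against 118, 158 and 165 FPKM (log2 difference 3.94, SE 0.21). Ldhb, the heart-type subunit of lactate dehydrogenase, combined a large difference with a very high level, at 418, 439.99 and 429 FPKM in the RNP pool and 5745, 5014 and 4681 FPKM in the polysome pool (3.58, SE 0.08, limma adjusted p = 4.05e-08). In none of these did the libraries of the pools overlap. Next came Nlrp5 (3.53), Fmr1nb (3.50), Astl (3.36), Cryl1 (3.19), Padi6 (3.18), Kmt2d (3.08), Actg1 (3.06), Nlrp2 (2.89) and Rgn (2.89). Nlrp5 and Padi6 encode members of the subcortical maternal complex, Astl the egg protease ovastacin that cleaves ZP2 after fertilization, and Kmt2d a very large H3K4 methyltransferase. Reads of Actg1 and the Nlrp genes may be split with close copies, so their values are less certain.

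At the RNP end the largest differences included several noncoding transcripts. Of the 12 genes, Gm19299, A430046D13Rik and 1700034K08Rik are annotated as lincRNAs, and 2900057B20Rik and Rab11fip4os1 as antisense RNAs. A430046D13Rik was at 18.3, 18.1 and 16.1 FPKM in the RNP libraries against 1.2, 3.07 and 1.52 in the polysome libraries (-2.71, SE 0.31, limma adjusted p = 2.59e-04). Rab11fip4os1 stood at 44.5, 47.5 and 40.2 against 3.07, 9.62 and 12.3 FPKM (-2.44). Among protein-coding genes, Tsacc, a binding partner of the testis kinase TSSK6, was at 44.9, 34.5 and 37.8 against 7.46, 6.71 and 5.69 FPKM (-2.39). Its exons overlap Gm38392 on the same strand. The others were Hist1h2ba (-3.04), Dyrk3 (-2.90), Gm6251 (-2.61), Zscan4d (-2.51), Fam229b (-2.48) and Mira (-2.36). Members of the Zscan4 and histone clusters share near-identical sequence. The calls of Gm19299, 2900057B20Rik and Mira were lost when single libraries were left out: Gm19299 without KO RNP replicate 2 or KO RNP replicate 3 (adjusted p up to 0.0582), 2900057B20Rik without KO RNP replicate 1 (0.0518), and Mira without KO RNP replicate 1, KO RNP replicate 2 or KO polysome replicate 2 (up to 0.1).

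**Figure D1:**
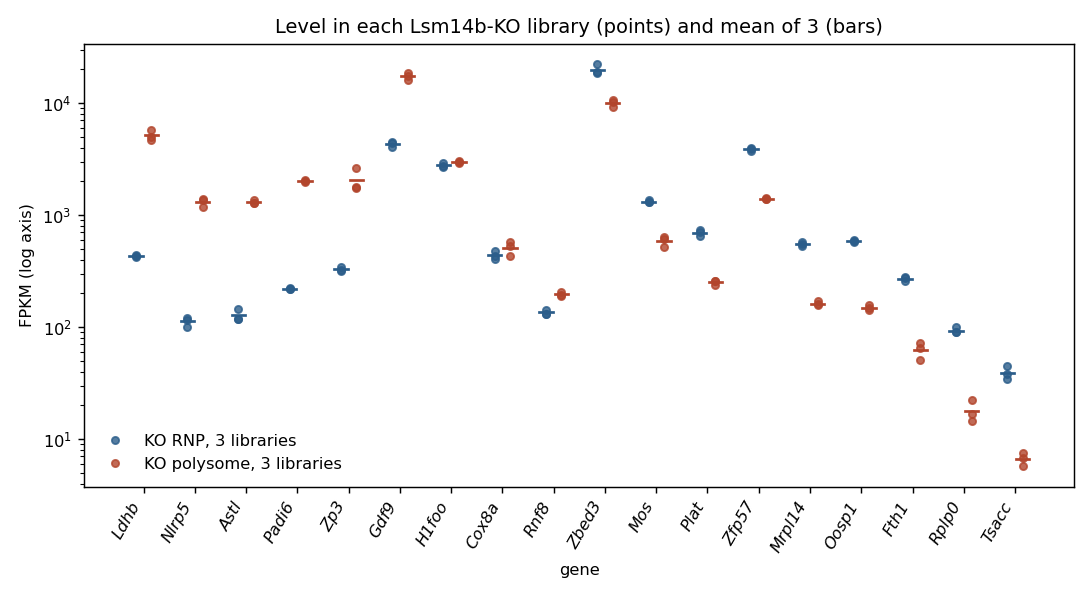
FPKM on a log axis for 18 named genes in the 6 KO libraries, each point 1 library, each bar the mean of 3, RNP in blue and polysome in red. The points of the pools lie apart for every gene drawn except Cox8a and H1foo, the pair drawn as genes not called: polysome libraries are above RNP libraries from Ldhb to Gdf9 and for Rnf8, and below them from Zbed3 to Tsacc.

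The calls were then read through 40 lists of genes by function, which together hold 2504 genes of the table. Each list is described by how many of its tested members were higher in either pool and by the median of its differences, to be read against the 15.5%, 13.8% and -0.04 of all genes. Genes said below to lie in a pool are those called higher in it, not those found only there. Leaving out any 1 of the 3 KO RNP libraries lowered the calls over all genes to between 2030 and 2040, and the counts of many lists fell with them, which is given for the main lists where a count fell by more than 1.5 times. The calls of single genes named below held without each library in turn unless a library is named. Gja1, Zfp273 and Nespas are exceptions, since they reached 1 FPKM in the libraries of 1 pool only. Each was not tested when 1 of those libraries was left out. Exons of Atp5a1, Kdm1b, Cnot7, Cdc25b, Dnaja4, Aldoa, Eif4a2, Eif2b4, Fbxo46 and Fzr1 overlap a coding gene on the opposite strand (Haus1, Dek, Zdhhc2, Spef1, Wdr61, Fam57b, Rfc4, Snx17, Qpctl and Mfsd12 in that order), whose reads cannot be told apart. Slc2a1 and Pou5f1 overlap the predicted genes Gm12868 and Gm19553 on the opposite strand, and Ctsd and Obox2 overlap Gm49369 and Obox1 on the same strand.

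The growth factor genes Gdf9 and Bmp15 and the zona pellucida genes of the egg coat were higher in polysomes in KO oocytes. The oocyte markers as a group had a median of 1.31 against -0.04 for all genes, with 12 of 18 higher in polysomes and 4 higher in RNP. Gdf9, the growth factor with which the oocyte steers granulosa cells, had the highest median level of the KO polysome pool, at 16108, 17406 and 18497 FPKM, against 4427, 4478 and 4051 FPKM in the RNP pool. Its partner Bmp15 stood at 2205, 2723 and 2822 against 607, 623 and 585 FPKM. Both differed about equally, by 2.00 (SE 0.07) and 2.08 (SE 0.10). Of 16 oocyte signals and meiotic-arrest genes tested, 7 were higher in polysomes and 2 in RNP (median 0.43). Gja4, the connexin of the oocyte's gap junctions with granulosa cells, went the other way, at 1078, 1164 and 1199.6 FPKM in RNP and 641, 598 and 656 in polysomes, as did Fgf8 (-1.49). The growth factor gene Bmp6 was not called (0.04, limma adjusted p = 0.903). Gnas, the stimulatory G protein of the arrest pathway, differed by 2.36, but its exons overlap Nespas on the opposite strand. Without strand, reads of the pair cannot be told apart.

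The 3 zona pellucida genes were all higher in polysomes. Zp3 was at 316, 344 and 322 FPKM in the RNP libraries against 2614, 1763 and 1736 in the polysome libraries (2.61, SE 0.15), Zp2 at 18.3, 18.8 and 17.1 against 96.2, 71.5 and 78.9 (2.12) and Zp1 at 65.2, 58.6 and 59.7 against 333, 207 and 237 (2.03). All 3 were highest in polysome replicate 1, and the pools did not overlap. The egg surface list split: 6 of its 12 tested members were higher in polysomes and 3 in RNP. The 3 were Oosp1 (-1.98), Oosp3 (-1.78) and Bcl2l10 (-0.43). Oosp1, a secreted oocyte protein, was at 603, 576 and 588 FPKM in RNP and 156, 146 and 142.7 in polysomes, the reverse of the zona genes.

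Members of the subcortical maternal complex and the Nlrp family, which the egg needs for early cleavage, had the highest share of polysome calls of the 40 lists: 14 of 20 were higher in polysomes and 2 in RNP (median 1.05). Nlrp5 was at 115, 121 and 99.9 FPKM in RNP and 1177, 1361 and 1384 in polysomes, Padi6 at 223, 217 and 218 against 2039.7, 2003 and 1955, and Nlrp14 at 868, 918 and 844 against 5396, 6350.4 and 6296. These are differences of 3.53, 3.18 and 2.77, each with libraries of the pools far apart. The exceptions were abundant. Zbed3, which the list holds for its place in the complex, had the highest median level of the KO RNP pool, at 18931, 18354 and 22246 FPKM against 10200.3, 9208 and 10582 FPKM in polysomes (-0.99, SE 0.08). Khdc1b was at 4378, 4538 and 4109 against 1773, 2136 and 2245 FPKM (-1.09).

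Protein folding and lysosome genes also stood on the polysome side. Of 54 chaperones and chaperonins, 28 were higher in polysomes and 4 in RNP (median 0.84, pair medians 0.62 to 0.78). Hsp90aa1, the stress-inducible cytosolic HSP90, was at 239, 256 and 242 FPKM in RNP and 676, 741 and 713 in polysomes (1.53). Dnaja4 (2.50), Dnajc9 (2.29), the endoplasmic HSP90 gene Hsp90b1 (1.95) and the chaperonin subunit gene Cct8 (1.91, its exons overlapping Usp16 on the other strand) were the farthest in that direction. Dnajb1 was the most abundant exception, at 407, 429.7 and 485 FPKM in RNP against 177, 149 and 169 in polysomes (-1.41), joined by the prefoldin genes Pfdn1 (-1.11) and Pfdn6 (-0.96).

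Of 35 V-ATPase and lysosome genes, 19 were higher in polysomes and 1 in RNP (median 0.82, and 0.30 with no filter on low values). Laptm4b, a lysosomal membrane protein, was the most abundant, at 325, 347 and 347 FPKM in RNP and 1494, 1486 and 1576 in polysomes (2.16, SE 0.07). Psap, the saposin precursor (2.68), Atp6ap1 (2.65) and Ctsd, the protease cathepsin D (2.65), stood next to Atp6ap2. The 1 gene higher in RNP was Laptm4a, the paralog of Laptm4b, at 98.9, 103 and 109 against 36.9, 39.7 and 27.4 FPKM (-1.56). The paralogs thus differed in opposite directions, and both were found in both pools.

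Energy metabolism was mixed. Of 33 genes of glycolysis, pyruvate handling and the TCA cycle, 13 were higher in polysomes and 6 in RNP (median 0.41). Beside Ldhb, the phosphoglycerate mutase gene Pgam1 (2.57) and E1 subunits of pyruvate and oxoglutarate dehydrogenase were polysome-high, Pdhb at 22.5, 19.9 and 16 against 68.9, 74.8 and 85.4 FPKM (1.93) and Ogdh at 4.47, 5.84 and 4.62 against 28.7, 20.1 and 24.3 FPKM (2.08). Slc2a1, the glucose transporter GLUT1, lay in RNP, at 27.5, 40.2 and 26.1 FPKM against 5.63, 6.76 and 6.2 (-2.14). So did the aldolase gene Aldoa (-1.45) and the mitochondrial pyruvate carrier gene Mpc2 (-1.01). The 68 nuclear-encoded subunits of oxidative phosphorylation divided into 15 higher in polysomes and 13 in RNP (median 0.15), and into 8 and 8 without KO RNP replicate 1 or 2. Within the ATP synthase, Atp5a1 was at 41.7, 45.8 and 40.5 FPKM in RNP and 180.1, 202 and 177 in polysomes (2.10), whereas Atp5g1 was at 141, 142 and 144 in RNP and 57.1, 52.5 and 34.4 in polysomes (-1.58). The most abundant subunit, Cox8a, was at 402, 433 and 475 FPKM in RNP and 433, 529.7 and 574 in polysomes, with a difference of 0.22 that did not pass (adjusted p = 0.191) and passed only without KO polysome replicate 1 (0.0245).

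Of the protein-degradation lists, F-box proteins and cullins, the adaptors and scaffolds of ubiquitin ligases, had 26 of 70 members higher in polysomes and 9 in RNP (median 0.26). Skp1a, the adaptor that joins F-box proteins to cullins, was at 804, 741 and 803 FPKM in RNP and 2646, 2787 and 2713 in polysomes (1.79). Fbxo38 (2.17) and the oocyte genes Fbxw24 (1.93) and Fbxw19 (1.90), which belong to a cluster of near-identical copies, were on the same side. Fbxo46 (-1.63) and Fbxl6 (-1.42) lay in RNP. Ubiquitin-specific and related proteases counted 17 higher in polysomes and 6 in RNP of 54, with Uchl1 the most abundant, at 1063, 1157 and 1128 against 3029, 2367 and 2267 FPKM (1.18, its exons overlapping Uchl1os). Proteasome subunits were called in both directions, with 8 in polysomes and 9 in RNP of 42 (median -0.17): the core subunit gene Psmb5 differed by 1.64 and Psma7 by -1.76.

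The translation machinery was divided between the pools. Of 40 initiation factors, 16 were higher in polysomes and 3 in RNP (median 0.23). The 16 became 9, 7 and 8 without KO RNP replicates 1, 2 and 3, and 10 with no filter on low values, where the median was 0.04. Eif2s3x, the gamma subunit of eIF2, was at 2.91, 2.88 and 3.59 FPKM in RNP and 15, 28.5 and 27.9 in polysomes (2.54), and the helicase gene Eif4a2 and the scaffold gene Eif4g2 differed by 1.34 and 1.20. The 3 on the RNP side were Eif2b4 (-0.99), Eif6 (-0.68) and the cap-binding protein gene Eif4e (-0.34), whose call was lost without KO RNP replicate 1, KO RNP replicate 2, KO RNP replicate 3 or KO polysome replicate 2 (adjusted p up to 0.125). Elongation and termination factors were mostly not called, with 3 in polysomes and 1 in RNP of 16. Eif5a was the most abundant of them, at 576, 571 and 619 against 974, 951 and 859 FPKM (0.65).

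Ribosomal protein genes, whose mRNAs carry a terminal oligopyrimidine tract that couples their translation to growth signals, were called more often in RNP than in polysomes in both subunit lists, and whether the subunits differed was not tested. Of 22 small-subunit genes, 0 were higher in polysomes and 5 in RNP (22.7%, median -0.44), and 3 in RNP without KO RNP replicate 1 or 3. Rps27l was at 28.1, 22.1 and 26.2 FPKM in RNP and 8.02, 8.38 and 4.99 in polysomes (-1.73), and Rps15 differed by -1.63. Of 32 large-subunit genes, 5 were higher in polysomes and 9 in RNP (28.1%, median -0.03, and 0.12 with a filter of 5 FPKM), and 3 in polysomes without 1 of the KO RNP libraries or KO polysome replicate 3. Rplp0, the stalk protein, was at 89.4, 90 and 99.5 against 22.5, 16.8 and 14.3 FPKM (-2.34) and Rpl41, the most abundant, at 1759.6, 1868 and 1879.6 against 1074, 775 and 786 (-1.08). Rpl22 lay on the other side, at 7.71, 7.47 and 8.11 against 32.1, 30.2 and 30.1 FPKM (1.86). Ribosomal protein genes have many processed pseudogenes, and how the authors' counting divided reads among them is not known, so these levels are uncertain. Mitochondrial ribosomal proteins had 7 of 75 members in polysomes and 19 in RNP (25.3%, median -0.36, pair medians -0.34 to -0.31). Mrpl14, the most abundant, was at 553, 526 and 579 FPKM in RNP and 169, 156 and 160.2 in polysomes (-1.77, SE 0.09). Mrps6 was the opposite, at 53, 57.8 and 52.6 against 263, 288 and 297 FPKM (2.35), but shares exons with Slc5a3 on the same strand. The median coding lengths of the small cytosolic and the mitochondrial ribosomal protein lists were 462 and 588 bases, against 1371 for all genes tested with an annotated reading frame, and the part of length in these results was not tested.

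The list of mRNAs known to be recruited to polysomes at meiotic maturation had the highest share of RNP calls of the 40. Of its 15 members, 8 were higher in RNP and 1, Tpx2, in polysomes (53.3% against the 13.8% of all genes, median -0.48), and 5 in RNP without KO RNP replicate 1 or 2. Mos, the kinase that starts the MAPK cascade of meiosis, was at 1299, 1295 and 1364 FPKM in RNP and 515, 610.04 and 639.8 in polysomes (-1.17, SE 0.09). Plat, tissue plasminogen activator, was at 701, 728 and 646 against 236, 259 and 257 FPKM (-1.46), and Cnot7, a deadenylase subunit of the CCR4-NOT complex, at 256, 293 and 279.8 against 82.7, 121 and 132 (-1.32). Dazl, an RNA-binding protein that activates such mRNAs, differed by -0.93, a call lost without KO RNP replicate 1 or KO RNP replicate 2 (adjusted p up to 0.0684). Tpx2, a spindle assembly factor, was at 14, 16.5 and 14.9 FPKM in RNP and 32.3, 30.2 and 28.1 in polysomes (0.96).

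Cell-cycle genes were divided by gene. Their lists share members with the recruited list, Mos and Tpx2 among them, and the counts include these. Of 44 cyclins, CDKs and M-phase kinases, 14 were higher in polysomes and 10 in RNP (median 0.05). Cdk1 was at 8.65, 7.47 and 9.25 FPKM in RNP and 35.4, 30.9 and 27.6 in polysomes (1.77), and its activating phosphatase gene Cdc25b at 31.8, 41.9 and 31.3 against 107, 103 and 128 (1.66). The MAP kinase gene Mapk3 lay in polysomes, by 1.25, while Mos, which acts above it in the cascade, lay in RNP. Gsg2, the haspin kinase, differed by -1.57 and Aurkb by -1.15, the latter lost without KO RNP replicate 1 (adjusted p up to 0.0518). In the anaphase-promoting complex and spindle checkpoint list 5 of 35 were called in each direction. Its securin gene Pttg1 (1.89), activator gene Fzr1 (1.42) and subunit gene Anapc7 (1.13) lay in polysomes. Fbxo5, which encodes the inhibitor Emi1, was at 265, 262 and 279 FPKM in RNP and 159, 153 and 178 in polysomes (-0.72). Of 34 kinetochore and centromere genes, 7 were higher in polysomes and 0 in RNP, led by Cenpf (1.37) and Zwint (1.34). The 7 became 4 without KO RNP replicate 1 or KO polysome replicate 2.

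Genes for the storage machinery itself were spread over both pools. Of 55 stored-mRNA and translation-control proteins, 13 were higher in polysomes and 16 in RNP (median -0.14, and 0.04 without KO RNP replicate 2). Cpeb1, which binds the cytoplasmic polyadenylation element, was at 293, 272 and 316 FPKM in RNP and 820.3, 975 and 908 in polysomes (1.61), and Ythdf2, a reader of m6A that the oocyte needs, at 76, 79 and 102 against 215, 256 and 297 (1.57). In RNP lay the Y-box genes Ybx1 (-1.87) and Ybx3 (-1.63) and Papd4, the cytoplasmic poly(A) polymerase GLD2, at 13, 5.79 and 7.54 against 1.55, 1.28 and 0.745 FPKM (-2.11). Zar1, the most abundant of the list, was at 902, 584 and 1236 FPKM in RNP and 2022, 776 and 1341 in polysomes. Its libraries overlapped and its difference of 0.56 did not pass (adjusted p = 0.256, 0.0471 without KO polysome replicate 2). Deadenylation and decapping genes counted 11 in polysomes and 8 in RNP of 51, with Btg4, the adaptor that directs maternal mRNA decay, at 549, 579.9 and 521 against 394, 358 and 432 FPKM (-0.48). Among the LSM ring genes Lsm2 was at 70.7, 95.7 and 76.2 against 181, 231 and 194 FPKM (1.31) and Lsm3 at 343, 323 and 312 against 113, 96.1 and 116 (-1.58), in opposite directions.

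Histone variant genes lay in RNP or were not called. Of 13 histone variant and linker genes, 0 were higher in polysomes and 4 in RNP (median -0.70, and -0.25 without KO polysome replicate 3). H3f3a and H3f3b, which encode the same protein H3.3, were at 1078, 1119.7 and 1109.8 and 1063, 1029 and 1006 FPKM in RNP and at 465, 509.6 and 539.9 and 485, 625 and 625 in polysomes (-1.13 and -0.84). H3f3a has overlapping antisense genes. H2afj (-1.46) and H2afx (-0.76) were the others. The oocyte linker histone H1foo, the most abundant of the list, was at 2707, 2718 and 2913 against 2997, 2897 and 3029 FPKM and was not called (0.10, adjusted p = 0.26). Of 27 replication-dependent histone genes, whose mRNAs normally lack a poly(A) tail, 2 lay in polysomes and 3 in RNP.

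Chromatin regulators gave few calls outside the maternal factors. Of 69 histone-modifying enzymes, 8 were higher in polysomes and 4 in RNP (median 0.02). Kdm1b, the demethylase needed for maternal imprints, was at 53.6, 44.6 and 47.8 FPKM in RNP and 203, 312 and 306 in polysomes (2.44), and the very long Kmt2d and Kmt2c differed by 3.08 and 2.14. Of 29 maternal chromatin and DNA methylation factors, 10 lay in polysomes and 3 in RNP. Dppa3, which protects the maternal genome from demethylation, was at 1276, 1256 and 1375 against 3935, 3762 and 4329 FPKM (1.62) and Dnmt1 at 55.5, 49 and 50.2 against 172, 132 and 141 (1.50). Zfp57, which binds methylated imprinting control regions, was the reverse, at 3856, 3965 and 3763 FPKM in RNP and 1407, 1385 and 1382 in polysomes (-1.47, SE 0.06). It was also the most abundant of 228 zinc finger Zfp genes (median -0.22). Of these, 12 were higher in polysomes (5.26%, against 15.5% of all genes) and 29 in RNP (12.7%, close to the 13.8% of all genes). The 29 became 17 to 19 without 1 of the KO RNP libraries. Zfp273 was listed at 0 in all 3 polysome libraries and at 6.91, 4.85 and 3.58 FPKM in RNP. DNA repair genes counted 16 in polysomes and 5 in RNP of 63 (median 0.35), the 16 falling to 9 without KO RNP replicate 1 or 2, led by Brca1, at 6.49, 7.49 and 8.07 against 37.6, 36.7 and 39.2 FPKM (2.22). Oocyte transcription factors counted 6 in polysomes and 8 in RNP of 23, with Lhx8 (1.35) and Figla (1.29) on the first side and Obox2 (-1.24), Pou5f1 (-1.58) and Nobox (-0.42) on the second. Obox2 shares exons with Obox1.

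In the remaining lists both directions were found. Actin and thymosin genes counted 14 in polysomes and 6 in RNP of 34, and 9 in polysomes without KO RNP replicate 3 or KO polysome replicate 3, with Actb at 216, 214 and 208 against 723, 675 and 671 FPKM and Pfn1, the actin-binding profilin, at 772, 729 and 889 against 475, 372 and 417. Of 44 kinesins and tubulins, 9 lay in polysomes and 7 in RNP, and abundant beta-tubulin genes were opposed: Tubb2a at 676, 824 and 827 FPKM in RNP and 3096, 3026 and 3425 in polysomes (2.04), Tubb6 at 1329.5, 1303 and 1412 and 696, 725 and 764 (-0.89). Tubulin genes share long stretches of sequence. Counts higher in polysomes and higher in RNP were 18 and 17 of 158 solute carriers, 16 and 11 of 86 splicing factors, 11 and 8 of 51 nucleoporin and transport genes, 10 and 5 of 52 replication genes, 7 and 6 of 45 DEAD and DEAH box helicases, 7 and 5 of 31 secretory-entry genes, and 5 and 2 of 29 aminoacyl-tRNA synthetases. Without 1 of the KO RNP libraries the solute carriers higher in RNP were 5 to 9, the splicing factors 7 or 8 and the nucleoporin and transport genes 3 to 5. The medians lay between -0.11 and 0.23, against quartiles of -0.57 and 0.51 for all genes. Of the 11 follicle and blood cell markers that passed the filter, Gja1, Inha and Inhba were higher in polysomes and 0 in RNP, the call of Inhba being lost without KO RNP replicate 1 or 2 (adjusted p up to 0.0558). Gja1 was at 0.583, 0.353 and 0 FPKM in RNP and 4.91, 10.9 and 6.98 in polysomes. It could enter only through the pool in which it was high, so its call carries no weight. Inha was at 11, 6.03 and 3.8 against 51.4, 39.4 and 39.5 FPKM (2.57). In WT the inhibin gene Inha stood at 0, 0.24 and 0 FPKM in RNP and 9.58, 0 and 8.11 in polysomes. The part of follicle cell RNA in the list results was not tested.

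**Figure D2:**
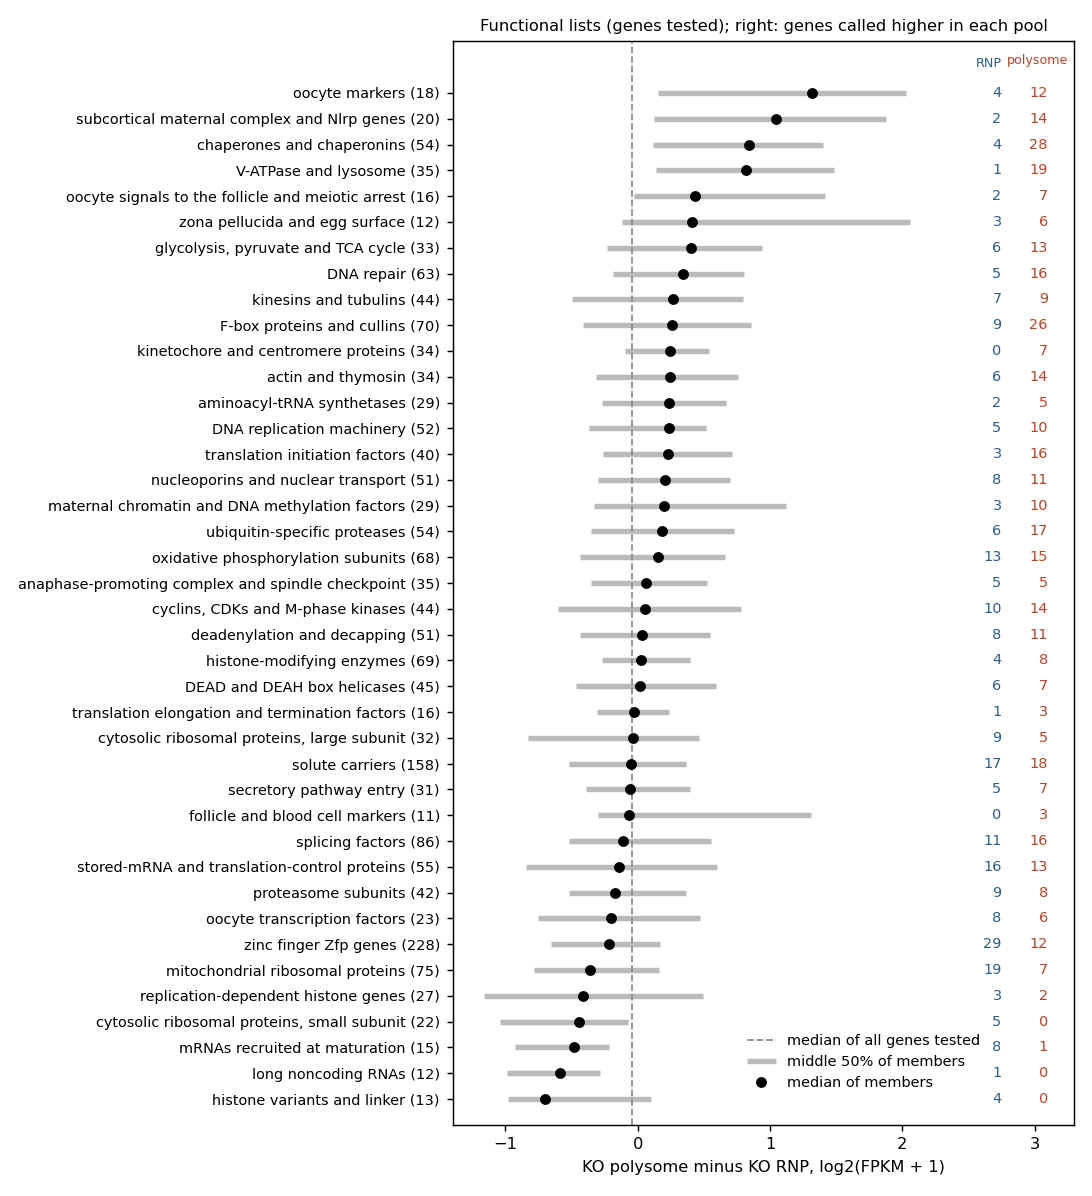
Difference between KO polysome and KO RNP libraries on log2(FPKM + 1) for the 40 gene lists, each point the median over the tested members, each grey bar the middle 50% of them, with the genes called higher in RNP and in polysomes at the right. The dashed line is the median of all genes, -0.04, and list medians run from -0.70 for histone variants to 1.31 for oocyte markers.

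Noncoding transcripts stood apart by gene type. Of 229 genes of long noncoding types in GENCODE M21, 3 were higher in polysomes (1.31%) and 69 in RNP (30.1%), with a median of -0.61 and pair medians of -0.79 to -0.67. Of the 229, 11 reached 1 FPKM in every library of 1 pool and in none of the other, against 165 of all 9851 genes. The filter fixed the direction of those 11, and the shares include any of them that were called. Of 9162 protein-coding genes, 1465 were higher in polysomes (16.0%) and 1210 in RNP (13.2%). The lincRNAs alone counted 3 and 39 of 112, and the antisense genes 0 and 13 of 58. A list of 12 named long noncoding RNAs had 1 call, Nespas, listed at 0 in the polysome libraries, so that it entered only through the RNP pool. Its most abundant member, Tug1, was at 14, 12.1 and 13.5 FPKM in RNP and 11.4, 14.8 and 18 in polysomes (0.13), and its direction turned without KO polysome replicate 3 (-0.02). Neither value passed. The median of the 12 was -0.59, and 0.07 with a filter of 5 FPKM. Antisense genes share loci with coding genes, and unstranded reads of the pair cannot be told apart.

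The 3′ ends of the called mRNAs differed in how often they held a motif. The cytoplasmic polyadenylation element (CPE), which CPEB1 binds, was searched as TTTTAT or TTTTAAT in the last 100 bases of 1 transcript per gene, on the sense strand, together with AATAAA or ATTAAA as polyadenylation signal. The longer element can run into the signal and share bases with it. To show what such ends look like, the 30 bases that end 5 bases after the last polyadenylation signal follow, from GENCODE M21 on GRCm38, with CPE and signal in capitals. The genes were picked after their values were seen, 3 higher in RNP with a CPE in this window, and 5 higher in polysomes, of which 1 has it.
Zbed3 (RNP, chr13:95337802-95337831, plus strand): acactccttttttttTTTTAATAAActttt
Cnot7 (RNP, chr8:40493036-40493065, minus strand): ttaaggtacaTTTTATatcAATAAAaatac
Lsm14a (RNP, chr7:34344659-34344688, minus strand): tTTTTAATAAAggccatggAATAAAgagat
Gdf9 (polysome, chr11:53437863-53437892, plus strand): tggTTTTATgtgacggaagAATAAActgtt
Nlrp5 (polysome, chr7:23441880-23441909, plus strand): gaggatgtagcaagaatgaAATAAAcacag
Padi6 (polysome, chr4:140727368-140727397, minus strand): aacaaattgccatagagccAATAAAgcatg
Ldhb (polysome, chr6:142490262-142490291, minus strand): cactaggagctcctgatcaAATAAAgttag
Astl (polysome, chr2:127357609-127357638, plus strand): tcatgtgggaaaaggtagaAATAAAgttgg
All 8 windows lie in the 3′ UTR of the gene's last exon. In Zbed3 and Lsm14a the element overlaps a signal, and in Cnot7 it lies just before it. Gdf9, the transcript with the highest level in polysomes, also carries the element, and no element was found in the last 100 bases of the other 4 polysome genes.

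Over the genes with a signal in that window, a CPE was found in 26.9% of the 882 higher in RNP, in 1022 of the 4856 not called and in 13.4% of the 1183 higher in polysomes. All 6921 tested genes of this kind stood at 20.5%, and all 14865 annotated ones at 18.2%. With 2 or more elements the shares were 5.67% and 1.78% for RNP and polysome genes. Read the other way, 18.6% of the 5503 genes with no CPE were higher in polysomes and 11.7% in RNP, and of the 224 with 2 or more, 9.38% and 22.3%. The order held within 3 equal groups by transcript length. From the shortest to the longest, 28.6%, 25.9% and 23.8% of RNP genes held a CPE, against 10.7%, 12.4% and 70 of 412 polysome genes. Of the recruited list 5 of 12 held a CPE. The Pumilio motif TGTANATA was found at 4.88% and 5.75%. These are letters in an annotated end, not sites shown to be bound.

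**Figure D3:**
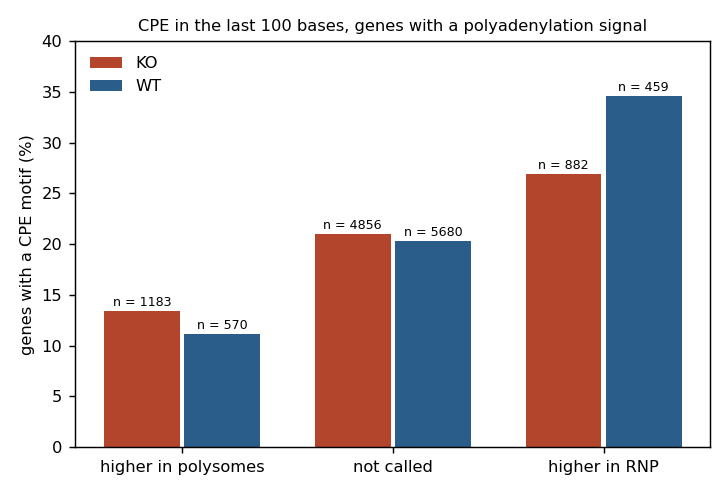
Share of genes with a CPE among those with a polyadenylation signal in the last 100 bases, in percent, for genes called higher in polysomes, not called and called higher in RNP, in KO (red) and in WT (blue), with the number of genes above each bar. In KO the bars rise from 13.4% to 26.9% and in WT from 11.1% to 34.6%.

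Coding length went with the share of RNP calls in KO oocytes, and with that of polysome calls only among the longest reading frames. Protein-coding genes higher in polysomes had a median coding length of 1383 bases, those higher in RNP 1041 and those not called 1443. Genes were put into 10 groups of similar number by coding length. In the group with the longest reading frames, 3357 bases or more, the median difference was 0.35, 22.4% were higher in polysomes and 2.51% in RNP. In the shortest group, up to 531 bases, the median was -0.18, and 139 of its 919 genes were higher in polysomes and 211 in RNP. Across 9162 genes the Spearman correlation of the difference with coding length was 0.15, with length of the whole transcript 0.17, and with its GC content -0.04. In WT oocytes the shortest group had a median of 0.10 and the longest of 0.06. The share higher in RNP was lower in the longest group in WT too, at 8.29% in the shortest and 1.65% in the longest. The WT share higher in polysomes was 15.0% in the shortest group and 4.84% in the longest. Over the 8414 genes tested in both genotypes, the correlation with coding length was 0.13, 0.12 and 0.15 in the same-numbered KO pairs and -0.01, -0.01 and -0.05 in the WT pairs. Replicate numbers are not known to pair the libraries, so the range over these pairs is no spread between replicates. Whether the genotypes differ in this correlation was not tested. Genes share each library's fragment lengths and amplification, and the part these have in the result was not tested.

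**Figure D4:**
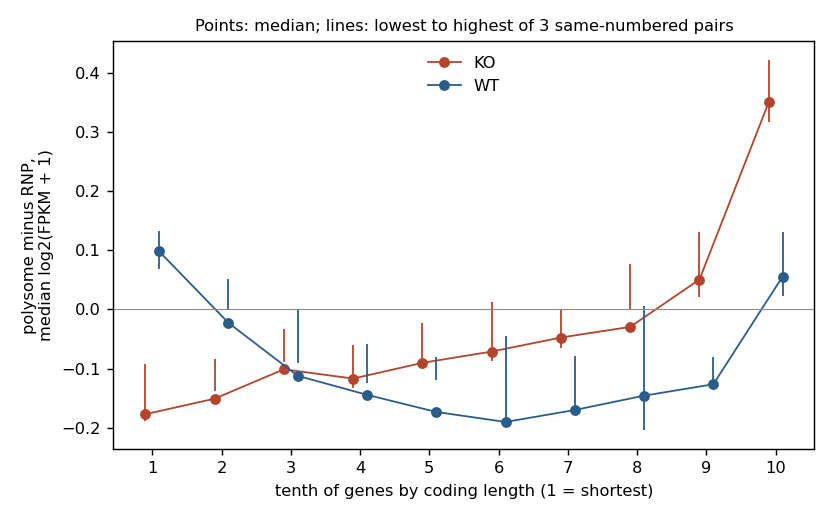
Median difference between polysome and RNP libraries on log2(FPKM + 1) for 10 groups of protein-coding genes ordered by coding length, KO in red and WT in blue, with vertical lines from the lowest to the highest of the 3 same-numbered pairs. KO runs from -0.18 in the shortest group to 0.35 in the longest, and WT from 0.10 to 0.06 with lower values between.

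The same pool comparison in WT oocytes called 1406 of 9574 genes (14.7%), 763 higher in polysomes (7.97%) and 643 in RNP (6.72%). Over the 8999 genes tested in both genotypes the differences correlated at Spearman 0.61. The genotypes share no library. Of the 760 genes higher in polysomes in WT, 592 were so in KO (77.9%), which is 40.1% of the 1477 KO genes. Of the 623 higher in RNP in WT, 425 were so in KO (68.2%), which is 32.1% of the 1325 KO genes. Over the 9851 genes that passed the filter in KO, WT replicates correlated less well, at 0.914 to 0.936 in RNP and 0.885 to 0.889 in polysomes, beside the smaller number of calls. These genes were chosen by their level in KO, so the values for KO and WT are not on an equal footing.

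The list medians over the same genes lay in a similar order in KO and WT. Oocyte markers were at 1.31 and 1.30, the subcortical maternal complex list at 1.05 and 1.14, histone variants at -0.70 and -0.78, and the recruited list at -0.48 and -0.68. Lists farther apart included oxidative phosphorylation, at 0.15 in KO and 0.52 in WT, and the small ribosomal subunit, at -0.44 and -0.06. Aminoacyl-tRNA synthetases were at 0.23 and -0.21, and DEAD and DEAH box helicases at -0.02 and -0.49. Of the oocyte lists, zona and egg surface was at 0.62 and 1.02, and oocyte signals and meiotic arrest at 0.43 and 0.77. Elongation and termination factors were at 0.04 and -0.30, nucleoporins and transport at 0.21 and -0.11, and actin and thymosin at 0.24 and 0.55. In WT 20 of 69 oxidative phosphorylation genes were higher in polysomes and 1 in RNP, against 15 and 13 of 68 in KO. Whether a list differed between genotypes was not tested. The median of CPE genes less that of others, in the 6350 genes with a signal tested in both, was -0.25, -0.19 and -0.19 in the KO pairs and -0.28, -0.30 and -0.29 in the WT pairs. Here too the range over the pairs is no spread between replicates, and a difference between the genotypes was not tested.

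**Figure D5:**
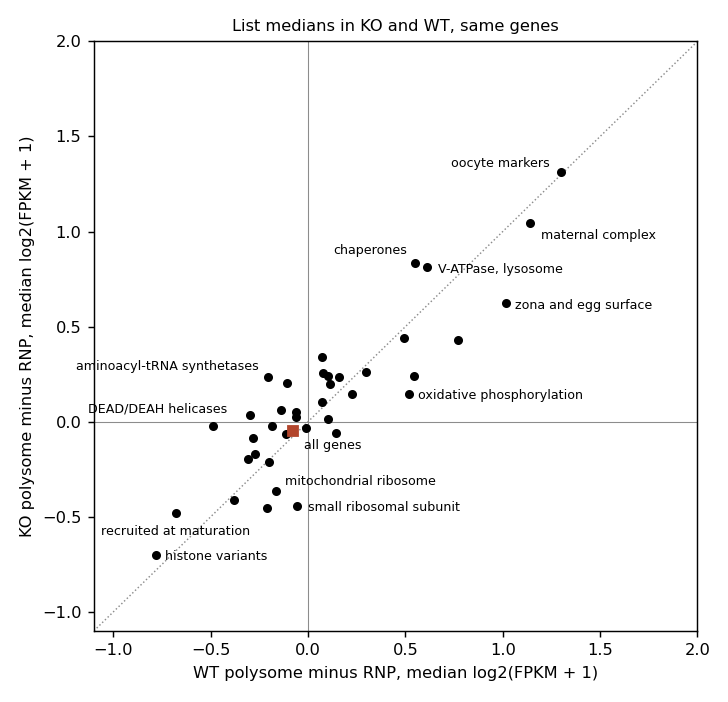
Median difference between polysome and RNP libraries on log2(FPKM + 1) over the members tested in both genotypes, WT on the horizontal and KO on the vertical axis, each point 1 list with 10 or more such members, the red square all genes. Most points lie near the dotted line of equal values, with oxidative phosphorylation at 0.52 in WT and 0.15 in KO and the small ribosomal subunit at -0.06 and -0.44.

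Whether a gene's pool difference itself depended on Lsm14b was tested in 1 model of the 4 groups with an interaction term. It passed at 26 of 10949 genes (0.237%), 9 with a more polysome-sided difference in KO (0.0822%) and 17 with a more RNP-sided one (0.155%). The 17 included Atp5g1 and Cox8a of the oxidative phosphorylation list and Khdc1b of the maternal complex list, and the 9 included Hsp90aa1 of the chaperones. Atp5g1, the c subunit of ATP synthase, differed by 0.11 in WT, where it stood at 51.3, 49.2 and 50.5 FPKM in RNP and 57.3, 56.5 and 49.7 in polysomes, and by -1.58 in KO (interaction -1.69, SE 0.25, limma adjusted p = 0.0204). Sdhaf4, an assembly factor of complex II, was even in WT at 116, 92.3 and 94.1 and 89.6, 78.4 and 120.05 FPKM and RNP-sided in KO at 182, 135 and 155 and 40.8, 57.6 and 42. Fth1, the ferritin heavy chain whose mRNA is under iron control, was at 256, 273 and 278 FPKM in KO RNP and 72.3, 50.7 and 65.5 in KO polysomes, against 108, 102 and 97.4 and 66.9, 61.1 and 73.6 in WT. It was RNP-sided in both genotypes, and more so in KO. The median coding length was 393 bases over the 16 of the 17 with an annotated frame, and 1464 over 7 of the 9. All genes tested stood at 1359. This contrast was noticed after the genes were known. The number of calls depended on single libraries: it was 3, 0 and 1 without KO RNP replicates 1, 2 and 3, 2 and 3 without WT RNP replicates 2 and 3, 10 and 15 without KO polysome replicates 2 and 3, and 46 without WT polysome replicate 3. Of the 10 named interaction calls, 0 held without each library in turn. Where 0 genes were called, 999 had an unadjusted p under 0.05 in limma.

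Both cytoplasmic actin genes were polysome-sided, and for Actb the difference was larger in KO. Actb stood at 139.99, 146 and 158 FPKM in RNP and 294, 253 and 251 in polysomes in WT (0.84) and differed by 1.69 in KO (interaction 0.85, SE 0.14, limma adjusted p = 0.0206). Cetn2, a centrin of centrioles and spindle poles, was polysome-sided in both genotypes and less so in KO, at 115, 104 and 103 against 164, 165 and 157 FPKM in KO and 53, 42.7 and 34.1 against 227, 213 and 225 in WT. Genes called in opposite directions in KO and WT were 5, chosen here after their values were seen: Tmsb4x, Txn2, Wdyhv1, Zfp7 and C86187. Of the 5, Wdyhv1 kept both calls without each library in turn. The KO call of Zfp7 was lost without any 1 of the 6 KO libraries (adjusted p up to 0.166), that of Txn2 without any 1 of them except KO polysome replicate 1 (up to 0.0962), and that of C86187 without KO RNP replicate 3 or KO polysome replicate 2 or 3 (up to 0.0685). The WT calls of Txn2 and C86187 were lost without 4 and 3 of the WT libraries (up to 0.106 and 0.101). Tmsb4x, thymosin beta 4, which binds actin monomers, was at 3.6, 8.12 and 10.3 FPKM in KO RNP and 0, 1.95 and 1.67 in KO polysomes, against 0, 0 and 1.09 and 15.5, 12.2 and 6.89 in WT. Its KO call was lost without KO RNP replicate 2 or KO RNP replicate 3 (adjusted p up to 0.0799).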

How the data were processed

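The sources of the pools and genotypes are described above. Per the series' design text and the labels, the authors trimmed their paired-end reads, mapped them to mm10 with TopHat2 and computed FPKM, fragments scaled by transcript length and library size, with Cufflinks. The annotation they counted on is not given in the sources used here. Their processing notes name TopHat2 2.0.13, Cufflinks 2.2.1, Cuffdiff, used for their own comparisons, and Cuffnorm, whose role is not given. The deposited FPKM values, 1 column per library, were used as given, and the table's own columns of comparisons (fold changes and p-values) were not used. FPKM is no count, so values were tested as log2(FPKM + 1), which understates the change of low genes. Genes at 1 FPKM or more in at least 3 of the 6 libraries compared were tested in limma (version 3.58.1, R 4.3.3) with an intensity trend, two-sided, with Benjamini-Hochberg adjustment over all genes tested and a threshold of 0.05. The genotype difference was the interaction term over 12 libraries. The code was checked on simulated data. The members and gene lists were chosen with earlier results of these data known.

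Genes were named by rule: the 12 largest differences in each direction, the 5 largest genotype differences in each direction, each with a mean of at least 5 FPKM and 1 direction in all 3 same-numbered pairs, and in each list up to 4 called members in each direction with its most abundant member. Some genes the rule names are not reported here. Transcripts, types and coding lengths came from GENCODE M21 on GRCm38, matched by symbol, and served as annotation only, since the authors' annotation may differ. No entry matched 395 of the 9851 symbols tested in KO. Library depth was estimated from the spacing of the lowest FPKM values and annotated lengths less 200 bases, so it is approximate. Alternatives were other pseudocounts (0.1 and 5), filters, scalings, the replicate number as a block, no trend, and each library left out.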

Additional observations from a re-analysis of the deposited data

Results flagged for a closer look

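The 10 genes named for the genotype difference stood out because the pool difference in KO differed from that in WT by the interaction test in limma. Their interactions, as the KO difference less the WT difference on log2(FPKM + 1), were as follows. Mocs1, which acts in molybdenum cofactor synthesis, had 3.41 (SE 0.59, adjusted p = 0.0346): it stood at 12, 21.6 and 18.2 FPKM in WT RNP and 1.8, 0 and 1.71 in WT polysomes, and at 10.5, 15.4 and 15.4 and 15.4, 22.7 and 11.9 in KO. 1700030A11Rik had 3.27 (SE 0.46) and was listed at 0 in all 3 WT polysome libraries, so that its size depends on the pseudocount. It overlaps 4930539E08Rik on the opposite strand. Zfp784 had 2.97 (SE 0.45) and overlaps Zfp865. The sizes varied widely over the alternatives, from 2.03 to 4.84 for Mocs1, 1.46 to 6.45 for 1700030A11Rik and 1.35 to 5.62 for Zfp784. Actb had 0.85 and the ubiquitin ligase gene Rnf8, which overlaps Gm28043, had 0.80 (SE 0.15, adjusted p = 0.049). Rnf8 stood at 278, 274 and 308 FPKM in WT RNP and 227, 266 and 225 in WT polysomes, and at 143.1, 130.4 and 132 and 207, 195 and 189 in KO.

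On the other side, Tmsb4x had -5.20 (SE 0.76, adjusted p = 0.0204), Cetn2 -1.76 (SE 0.21), Atp5g1 -1.69, Sdhaf4 -1.65 (SE 0.27, overlapping Gm26524) and Fth1 -1.49 (SE 0.20). The size for Tmsb4x ran from -8.85 to -2.56 over the alternatives. All 10 had 1 direction in the 3 same-numbered differences, which was part of the rule that named them, and 0 of the 10 were called without each library in turn.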

How the results depend on the processing

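The 2881 calls of the KO comparison ranged from 2030 to 2968 over all alternatives, within 1.5 times, and the left-out libraries gave 2030 to 2909, the highest without KO polysome replicate 1. The median over all genes moved by less than 0.1 under each scaling. Of 298 named genes called in KO, 223 were called under every alternative that tested them. Without each library in turn 233 were called wherever they were tested. The WT calls numbered 728 with no intensity trend and 780 to 1212 without single libraries. The genotype difference gave 11 genes with the replicate block, 6 with no intensity trend and 0 to 46 without single libraries, where the count of 0 came with 999 genes at an unadjusted p under 0.05. The KO differences of Mocs1 and Tug1, which were not called, reversed without KO polysome replicate 2 (-0.0022) and replicate 3 (-0.0195) and ranged up to 0.44 and 0.29 without other libraries. The cause was not tested. No sign of pairing by replicate number was seen: deviations of same-numbered libraries correlated at -0.012 to -0.00011 in KO and at -0.0085 to 0.0046 in WT. This cannot show whether they came from the same lysate, which the sources do not say. With the number as a block the KO calls were 2720 and the WT calls 1165. Of the list medians under alternatives, 503 stayed within the spread between same-numbered pairs and 97 moved beyond it. That spread is not one between replicates, so this split does not measure how stable the lists are. At the approximate depth of these libraries and 3 replicates per pool, low genes rest on few fragments.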
